A study of Homo sapiens with 10 samples.

Results

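The NR4A orphan nuclear receptors NR4A1, NR4A2 and NR4A3, the Krüppel-like factors KLF2, KLF4, KLF6 and KLF10, and the early growth response factor EGR1 are 8 inducible transcription factors. They were picked by gene symbol, and all 8 were among the 12540 genes of the table and passed the filter on low counts. The cells were SRA01-04, a lens epithelial line of human origin that viral large T antigen immortalised. They were transfected with a RORα plasmid (RORα is a nuclear receptor, and its gene is RORA) or with the plasmid lacking an insert. Selenite at 10 µM, a selenium salt that causes cataract in young rodents, was added to both groups 48 h after transfection and left for 24 h, and messenger RNA was then sequenced. Each group held 5 libraries of 17475342 to 21956761 counts, written EV1 to EV5 (empty vector) and OE1 to OE5 (RORα overexpression). All libraries thus come from transfected cells under selenite at a single time, and there is no untreated group. Nothing in the labels says that replicates came from separate cultures, so the p-values reflect the spread among these libraries alone, which may be technical.

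NR4A receptors have a ligand pocket filled by bulky side chains and act largely without a ligand, so the amount of receptor made is taken to set their activity. They bind as monomers to an extended nuclear receptor core site that resembles the one RORα uses, and NR4A1 and NR4A2 also pair with retinoid X receptors. Krüppel-like factors bind GC-rich and CACCC sequences through zinc fingers at their C-terminal end, and EGR1 binds a GC-rich site through zinc fingers of its own. All of these genes can be switched on within minutes to hours by growth factors, stress or calcium, through serum response factor on CArG boxes, through CREB on cyclic AMP response elements, or through MEF2.

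The promoters shown are those of EGR1, the member that fell, and of NR4A3 and KLF4, members that rose at least 2-fold. They were chosen because they hold matches to the CArG box or to the core of the cyclic AMP response element. Each is the 250 bases before the RefSeq start site in GRCh38.p14: chr5:138465229-138465478 on the plus strand for EGR1, chr9:99821635-99821884 on the plus strand for NR4A3 and chr9:107489770-107490019 on the minus strand for KLF4. Capitals mark matches to the cyclic AMP core TGACG on either strand and, in EGR1, to the CArG box.
EGR1: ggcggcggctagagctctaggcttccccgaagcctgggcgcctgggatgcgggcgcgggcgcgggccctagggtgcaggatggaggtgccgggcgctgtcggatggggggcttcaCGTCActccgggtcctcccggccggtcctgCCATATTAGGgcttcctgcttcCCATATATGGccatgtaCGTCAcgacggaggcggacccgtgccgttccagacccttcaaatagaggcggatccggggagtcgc
NR4A3: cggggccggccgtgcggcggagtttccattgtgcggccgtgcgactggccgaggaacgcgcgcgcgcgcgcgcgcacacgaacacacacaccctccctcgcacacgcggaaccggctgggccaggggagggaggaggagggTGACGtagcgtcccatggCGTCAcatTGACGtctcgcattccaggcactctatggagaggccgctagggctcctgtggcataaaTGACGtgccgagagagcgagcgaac
KLF4: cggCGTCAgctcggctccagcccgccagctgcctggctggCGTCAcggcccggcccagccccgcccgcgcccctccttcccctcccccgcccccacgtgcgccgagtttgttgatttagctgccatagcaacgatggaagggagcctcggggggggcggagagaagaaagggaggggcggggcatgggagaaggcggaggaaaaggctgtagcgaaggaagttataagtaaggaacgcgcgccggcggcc
RefSeq windows were at hand for 6 of the 8 genes, with 2 start sites for NR4A1, and NR4A2 and KLF10 are named only. EGR1 held 2 CArG boxes, CCATATTAGG and CCATATATGG, and 2 cyclic AMP cores. NR4A3 held 4 cores and KLF4 held 2, while KLF2, KLF6 and both NR4A1 windows had no match to either of these elements. MEF2 sites were not searched, so whether any window holds one is not given here. Among 15009 such windows of genes in the table, 1.06% held a CArG box and 27.4% a TGACG core. The full element TGACGTCA (2.47% of windows), which contains that core, matched no member's window. The same was true of the receptor core AGGTCA (8.83%), which RORα and NR4A sites contain, and of the NR4A element AAAGGTCA (0.68%), which contains AGGTCA. The EGR site GCGNGGGCG (13.1% of windows) was found in EGR1, KLF2, KLF4 and KLF6. A match is a run of letters and not a shown binding site, and a missing match says only that these letters are not in this window.

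After RORα overexpression the NR4A and KLF genes rose and EGR1 fell. Of the 8 members, 7 rose and 1 fell past the threshold (edgeR quasi-likelihood test, Benjamini-Hochberg adjusted p under 0.05), against 28.6% of 12520 genes called higher, 27.5% called lower and 56.1% called in all. At least 2-fold rises were seen for 3 members, NR4A2, NR4A3 and KLF4, against 3.28% of genes. The 2 groups of libraries did not overlap for any member, as for 39.6% of genes (20.8% with the overexpression libraries on top, 18.9% with them below). The median log2 fold change was 0.80 over the members and 0.0027 over all genes tested. RORA itself rose from 15.0 ± 2.29 to 41.3 ± 2.21 CPM (counts per 1000000 counts of the library, ± SD, n = 5 per group; edgeR adjusted p = 4.36e-20), the direction that its label gives.

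**Figure D1:**
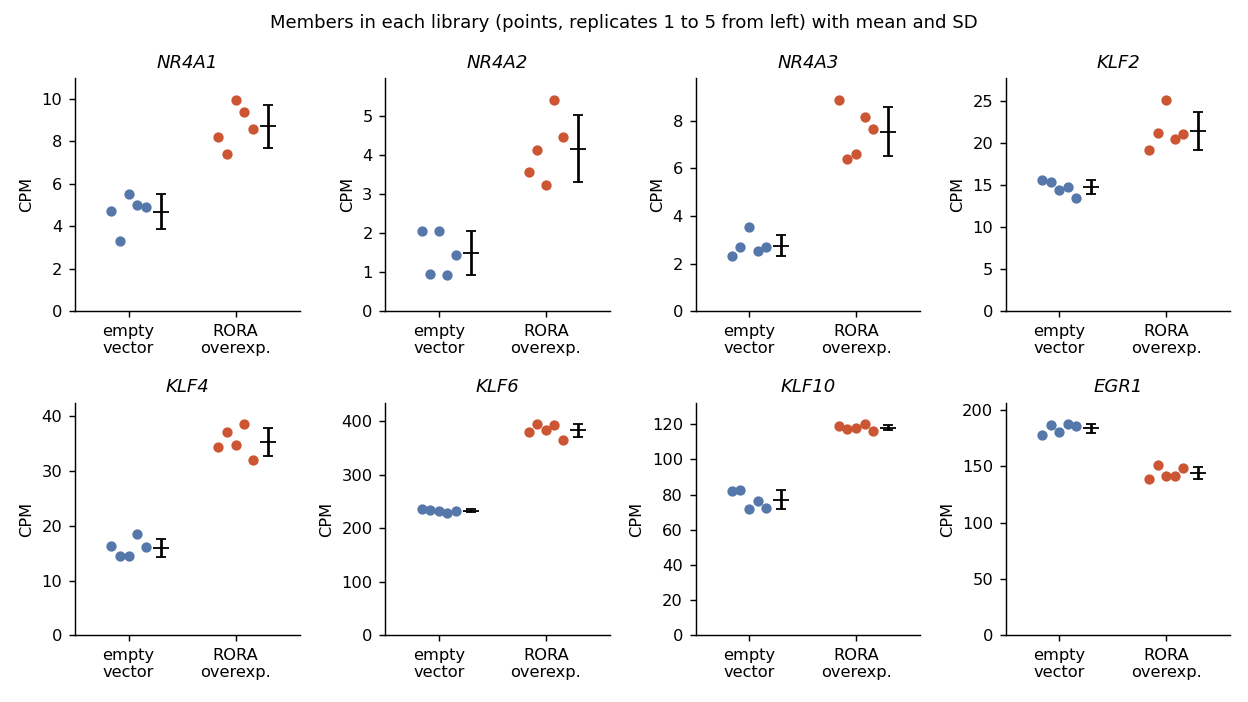
CPM of each member (vertical axes, each from 0) in the 5 empty vector libraries (blue) and the 5 RORα overexpression libraries (orange), replicates 1 to 5 from left, with the group mean and SD beside the points. The groups are apart in all 8 panels, and EGR1 is the panel in which the overexpression points lie below.

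The NR4A receptors were the scarcest members, and NR4A2 and NR4A3 had the largest proportional rises of the 8. NR4A3 (ENSG00000119508, chromosome 9, 99821855 to 99866891, plus strand, GENCODE 29 on GRCh38), also known as NOR1, stood at 2.34, 2.69, 3.54, 2.52 and 2.71 CPM in EV1 to EV5. It stood at 8.89, 6.40, 6.62, 8.17 and 7.67 CPM in OE1 to OE5. EV3 was the highest of its group, yet below every overexpression library. This gave a log2 fold change of 1.45 (SE 0.14), 2.72-fold (edgeR adjusted p = 1.15e-11), and 1.44% of genes had a larger one.

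NR4A2 (ENSG00000153234, chromosome 2, 156324432 to 156342348, minus strand), or NURR1, known for its role in dopamine neurons, had 38, 19, 42, 16 and 28 counts in EV1 to EV5 and 78, 88, 59, 95 and 88 in OE1 to OE5. In CPM these were 2.06, 0.947, 2.06, 0.915 and 1.43 against 3.56, 4.14, 3.23, 5.43 and 4.47. The empty vector libraries fell into a higher pair, EV1 and EV3, and a lower pair, EV2 and EV4, with EV5 between them, and OE4 was the highest of all. Its coefficient of variation in the empty vector group was 38.2%, where counting error alone would give 18.7%, which made NR4A2 the most variable member. Between groups the log2 fold change came to 1.47 (SE 0.21), 2.78-fold (edgeR adjusted p = 9.49e-08). On log2(FPKM + 0.1), where the added 0.1 is comparable to the gene's own FPKM, limma gave 0.68 (adjusted p = 0.000124).

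NR4A1 (ENSG00000123358, chromosome 12, 52022832 to 52059507, plus strand), or NUR77, a receptor linked to apoptosis and to restraint of inflammation in immune cells, rose least of the NR4A genes. It stood at 4.73, 3.29, 5.50, 4.97 and 4.91 CPM in EV1 to EV5 and at 8.21, 7.39, 9.96, 9.37 and 8.58 CPM in OE1 to OE5. EV2 was the lowest library and OE3 the highest. Its log2 fold change came to 0.89 (SE 0.12), 1.85-fold (edgeR adjusted p = 7.18e-08). An annotated gene on the opposite strand, AC025259.3, covers 10.3% of the exon bases of NR4A1. No strand-marking step is named in the labels, and reads from the pair cannot be told apart there. The other 7 members share no exon base with another annotated gene.

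Together the NR4A genes went from 8.92 ± 1.50 to 20.4 ± 1.82 CPM (SD, n = 5). Per kilobase of exon union, NR4A1 made up 44.3% ± 4.81 of the family with the empty vector and 34.8% ± 4.21 with RORα overexpression, NR4A2 25.2% ± 6.26 and 30.4% ± 4.46, and NR4A3 30.5% ± 5.04 and 34.8% ± 3.62 (SD over libraries, n = 5). NR4A1 had the largest share per kilobase in every empty vector library. With RORα overexpression NR4A3 led in OE1 and OE5, NR4A2 in OE2 and OE4, and NR4A1 in OE3. Without the division by length NR4A1 stood at 52.5% and 42.7%, NR4A2 at 16.3% and 20.4%, and NR4A3 at 31.2% and 36.9%. In the deposited FPKM, NR4A1 was highest in EV1, EV4 and EV5. NR4A3 was highest there in EV2 (0.143 against 0.102 for NR4A1) and EV3 (0.187 against 0.170). In OE1 to OE5 NR4A3 led throughout, at 0.341 to 0.470 FPKM, above NR4A1 at 0.230 to 0.308 and NR4A2 at 0.108 to 0.182. The make-up of the family thus depends on the scale.

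All 4 KLF genes rose, and KLF4 rose most. KLF4 (ENSG00000136826, chromosome 9, 107484852 to 107490482, minus strand), a regulator of epithelial barrier genes and 1 of the factors used to reprogram cells to pluripotency, stood at 16.4, 14.5, 14.4, 18.4 and 16.2 CPM in EV1 to EV5. In OE1 to OE5 it stood at 34.4, 37.0, 34.6, 38.6 and 32.0 CPM, so the lowest overexpression library was well above EV4, the highest of the empty vector group. This was a log2 fold change of 1.15 (SE 0.07), 2.22-fold (edgeR adjusted p = 1.33e-17).

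KLF6 (ENSG00000067082, chromosome 10, 3775996 to 3785281, minus strand), a widely expressed factor that responds to injury, was the most abundant KLF member and, with the empty vector, the steadiest of the 8. It stood at 237, 234, 232, 228 and 233 CPM in EV1 to EV5 and at 379, 395, 383, 392 and 365 CPM in OE1 to OE5. The coefficients of variation were 1.33% and 3.07%. The rise, on the log2 scale, was 0.72 (SE 0.03), 1.64-fold (edgeR adjusted p = 1.28e-22).

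KLF10 (ENSG00000155090, chromosome 8, 102648779 to 102655902, minus strand), first described as a gene induced early by TGF-beta, stood at 82.2, 82.9, 71.8, 76.6 and 72.4 CPM in EV1 to EV5. It stood at 119, 117, 118, 120.2 and 116 CPM in OE1 to OE5. The empty vector libraries were spread more widely, with a coefficient of variation of 6.81% against 1.31%. It had a log2 fold change of 0.61 (SE 0.04), 1.53-fold (edgeR adjusted p = 5.37e-16).

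KLF2 (ENSG00000127528, chromosome 19, 16324817 to 16327874, plus strand), best known as a flow-induced factor of endothelial cells, stood at 15.6, 15.4, 14.4, 14.8 and 13.4 CPM in EV1 to EV5. In OE1 to OE5 it stood at 19.2, 21.2, 25.2, 20.5 and 21.0 CPM. OE3 was the highest library, and even OE1, the lowest of its group, lay above all of the empty vector group. On the log2 scale it rose by 0.54 (SE 0.08), 1.45-fold (edgeR adjusted p = 9.56e-08).

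EGR1 (ENSG00000120738, chromosome 5, 138465490 to 138469315, plus strand), the most abundant member per length with the empty vector, fell. It stood at 178, 187, 180.0, 188 and 186 CPM in EV1 to EV5 and at 139, 151, 141, 142 and 149 CPM in OE1 to OE5. The highest overexpression library, OE2, was below the lowest empty vector library, EV1. This corresponds to a log2 fold change of -0.35 (SE 0.03), 1.27-fold lower (edgeR adjusted p = 2.68e-11), and 10.7% of genes had a lower one. In size it was the smallest of the 8 differences, on counts of 2480 to 3747 per library.

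**Figure D2:**
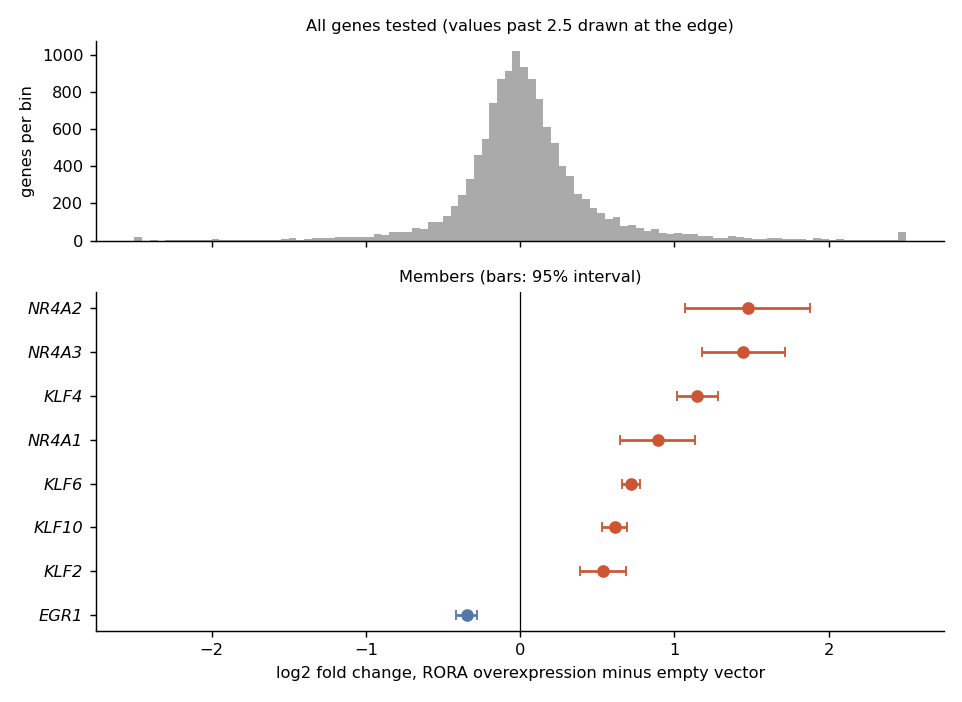
The lower panel gives the log2 fold change of each member, RORα overexpression minus empty vector, with its 95% interval (1.96 standard errors from edgeR), and the upper panel the distribution over all 12520 genes tested on the same axis. The NR4A and KLF members lie between 0.54 and 1.47 on the right flank of that distribution, and EGR1 lies at -0.35 on its left side.

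To set levels of different genes side by side, CPM was divided by the length of each gene's exon union in kilobases. With the empty vector the order was EGR1 (58.5 ± 1.36), KLF6 (37.9 ± 0.501), KLF10 (19.3 ± 1.31), KLF2 (7.31 ± 0.432), KLF4 (4.36 ± 0.449), NR4A1 (0.641 ± 0.114), NR4A3 (0.437 ± 0.0729) and NR4A2 (0.374 ± 0.143), in CPM per kilobase with the SD over 5 libraries. NR4A1 and NR4A3, and NR4A3 and NR4A2, had overlapping ranges, so the NR4A order is not separated by the spread. With RORα overexpression KLF6 (62.3 ± 1.91) stood above EGR1 (46.0 ± 1.68) on this scale. KLF2 (10.6 ± 1.11) and KLF4 (9.65 ± 0.694) then had overlapping ranges, as did NR4A3 (1.20 ± 0.166), NR4A1 (1.19 ± 0.137) and NR4A2 (1.05 ± 0.216). The exon union counts every annotated exon, used or not, so these levels depend on the annotation. The deposited FPKM, also scaled by gene length, gave another order with RORα overexpression. EGR1 stood at 44.1 to 48.4 FPKM over OE1 to OE5, above KLF6 at 25.9 to 28.0. KLF2 at 5.66 to 7.43 FPKM and KLF4 at 2.76 to 3.32 did not overlap, nor did the NR4A genes.

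**Figure D3:**
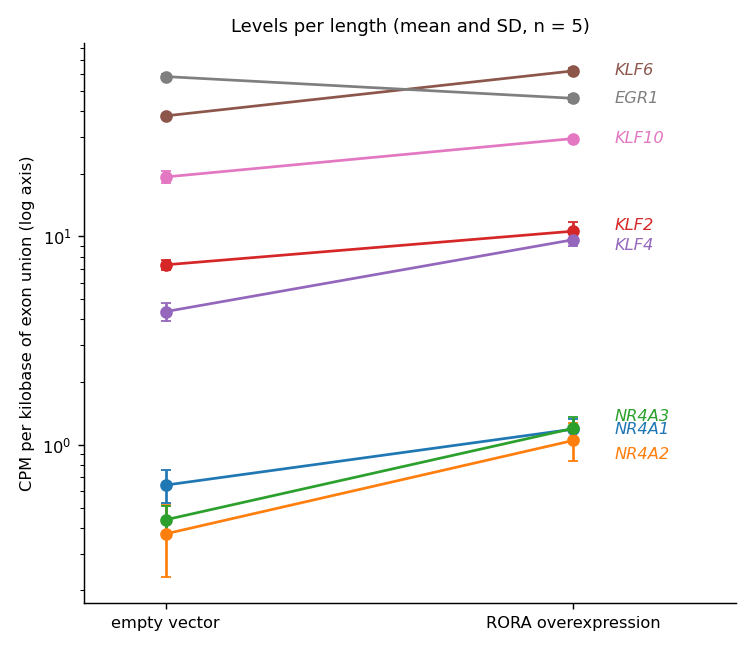
Mean CPM per kilobase of exon union (log axis) of each member in the 2 groups, with the SD over 5 libraries. On this scale KLF6 and EGR1 change places, KLF4 closes on KLF2, and the NR4A genes stay lowest and draw together near 1. In the deposited FPKM, not drawn, EGR1 stays above KLF6 in both groups and the NR4A genes lie apart with RORα overexpression.

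Whether relatives rose by different amounts was tested on the ratio of a pair within each library, which does not depend on how libraries are scaled. The 9 pairs within the NR4A and KLF families were compared between groups by exact permutation (two-sided, 5 libraries a side), with p-values adjusted over the 9 pairs. KLF4 gained on each of the other KLF members. The log2 ratio of KLF4 to KLF6 changed by 0.43 (SE 0.08), that of KLF4 to KLF10 by 0.53 (SE 0.09) and that of KLF2 to KLF4 by -0.61 (SE 0.11). For each of these the exact p was 0.0079, the smallest that this design allows, and the adjusted exact p was 0.024, with groups that did not overlap. The ratio of KLF2 to KLF6 changed by -0.18 (95% interval -0.33 to -0.04, exact p = 0.048, adjusted 0.071). That of KLF6 to KLF10 changed by 0.10 (0.02 to 0.19, exact p = 0.079, adjusted 0.10). That of KLF2 to KLF10 changed by -0.08 (-0.22 to 0.06, exact p = 0.27, adjusted 0.30). None passed 0.05 after adjustment. The interval of KLF6 to KLF10 leaves out 0 although its unadjusted exact p did not pass, as these intervals are too narrow for 5 libraries a side.

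Within the NR4A family NR4A1 lost ground to NR4A3. Their log2 ratio was 1.01, 0.29, 0.63, 0.98 and 0.85 in EV1 to EV5 and -0.12, 0.21, 0.59, 0.20 and 0.16 in OE1 to OE5. OE3 overlapped the empty vector range, and the other overexpression libraries lay below it. The change was -0.54 (SE 0.17, exact permutation p = 0.016, adjusted 0.036), and the call was lost in 8 of the 10 fits that left out 1 library, with adjusted p of up to 0.071. The call held without EV2 and without OE3. The ratio of NR4A1 to NR4A2 changed by -0.63 (95% interval -1.14 to -0.13; adjusted exact p = 0.071), which did not pass. That of NR4A2 to NR4A3 changed by 0.09, and the interval of -0.45 to 0.63 leaves room for a difference in either direction (adjusted exact p = 0.76).

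**Figure D4:**
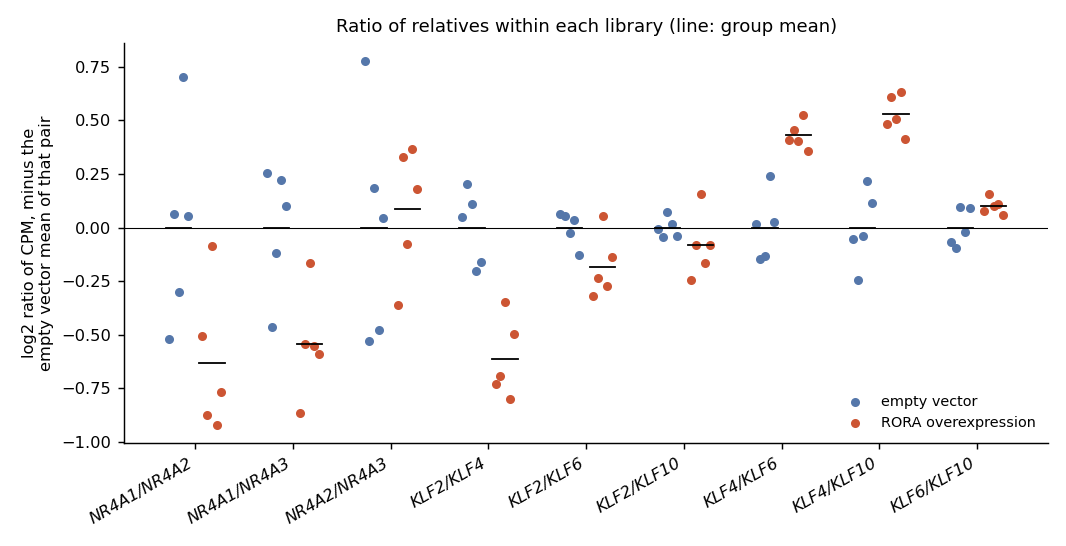
Log2 ratio of the CPM of 2 relatives within each library, drawn relative to the empty vector mean of that pair (vertical axis), for empty vector (blue) and RORα overexpression (orange) libraries, with a line at each group mean. The 3 pairs that hold KLF4 separate into groups that do not overlap, with shifts of -0.61, 0.43 and 0.53, while NR4A2 to NR4A3 shows spread with little shift.

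Relatives outside the 8 members moved in both directions. The counts of this and the next lists stand beside the 28.6% of all genes called higher, 27.5% called lower and 56.1% called in all. Of 10 other KLF genes tested, 5 rose, 1 fell and 4 were not past the threshold (median log2 fold change 0.18), so 60.0% were called, near the share of all genes. KLF11, the closest relative of KLF10 and like it TGF-beta inducible, rose from 15.3 ± 1.04 to 31.5 ± 0.968 CPM (1.04 on the log2 scale, edgeR adjusted p = 2.87e-17) and KLF5, a factor of proliferating epithelium, by 0.53, while KLF12, a repressor, fell by 0.37 on the log2 scale. Of 6 SP genes, which share the zinc finger fold, 2 rose, 1 fell and 3 did neither (50.0% called, median -0.0021). SP8 rose by 1.45 and SP6 by 0.47, SP3 fell by 0.25 on the log2 scale, and SP8 was at only 0.758 and 2.10 CPM.

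Of 4 EGR and NAB genes, 2 rose and 1 fell (75.0% called). EGR2, a factor of myelinating cells, fell from 6.76 ± 0.61 to 4.25 ± 0.905 CPM (-0.67 on the log2 scale, edgeR adjusted p = 3.43e-05), and EGR3 rose from 2.28 ± 0.347 to 4.49 ± 0.973 CPM (0.96, edgeR adjusted p = 7.95e-06). Of the NAB corepressors that bind EGR proteins, NAB1 rose by 0.31 and NAB2 stood at 44.7 and 45.3 CPM (edgeR adjusted p = 0.773). Of the 3 retinoid X receptor genes, RXRG rose from 0.373 to 2.11 CPM (log2 fold change 2.47, on 36 counts in all empty vector libraries), and the abundant RXRA and RXRB did not pass.

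Genes for the upstream factors differed by small amounts. Of 6 genes of serum response factor and its partners, none rose and 3 fell (50.0% called, median -0.07). MRTFA, an actin-sensing coactivator, fell by 0.32 and ELK3 by 0.19 on the log2 scale, and SRF itself stood at 107 and 113 CPM (edgeR adjusted p = 0.0707). Of 8 CREB factors and coactivators 2 rose and 3 fell (62.5% called, median -0.08), CRTC2 by 0.30 and CREB1 by 0.19 upward, and ATF1 by 0.23 and CREBBP by 0.21 downward. Of 6 genes of the ERK5 and MEF2 pathway, which drives KLF2 and KLF4 in endothelial cells, 1 rose and 2 fell (50.0% called, median 0.03). MEF2D rose by 0.19, MAPK7, which encodes ERK5, fell by 0.16 and MEF2A fell by 0.14 on the log2 scale.

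Of 33 other immediate early genes tested, 20 rose, 7 fell and 6 missed the threshold (81.8% called against 56.1% of all genes, median log2 fold change 0.34 against 0.0027). TRIB1, a pseudokinase, rose from 10.6 ± 1.56 to 31.4 ± 1.37 CPM (1.57, edgeR adjusted p = 2.1e-20) and ATF3, a stress-induced repressor, from 38.9 ± 2.09 to 104 ± 2.36 CPM (1.41, edgeR adjusted p = 5.84e-27). SGK1, a kinase, fell by 0.42 and CCN2, a matricellular protein, by 0.39 on the log2 scale. FOS, chosen after its values were seen as the textbook gene induced together with EGR1, stood at 35.8 ± 2.26 and 36.2 ± 1.80 CPM (log2 fold change 0.01, SE 0.06, edgeR adjusted p = 0.847).

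Genes reported elsewhere as targets of the members moved both ways, and several are targets of many other factors. The lists do not separate targets reported as activated from those reported as repressed, so a rise or fall is not read as activity of a member. Of 14 genes reported for EGR1, 7 rose, 3 fell and 4 did not pass (71.4% called against 56.1% of all genes, median 0.08). On the log2 scale ICAM1, an adhesion molecule, rose by 1.69 and PDGFB by 1.09, and FN1, fibronectin, fell by 1.18 and TGFB1 by 0.98. PDGFB was at only 0.67 and 1.46 CPM. Of 11 reported for KLF2 or KLF4, 6 rose, 2 fell and 3 did not pass (72.7% called, median 0.53), TXNIP, a thioredoxin inhibitor, by 1.95 and ITGB2 by 1.25 upward, and TAGLN, a smooth muscle actin-binding protein, by 0.52 and CCNB1 by 0.15 downward. Of 10 reported for KLF6 or KLF10, 5 rose, 4 fell and 1 did not pass (90.0% called, median 0.10), with ATF3 and CDKN1A, the inhibitor p21 (1.20), among those that rose and COL1A1 and TGFB1 among those that fell (by 1.50 and 0.98).

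**Figure D5:**
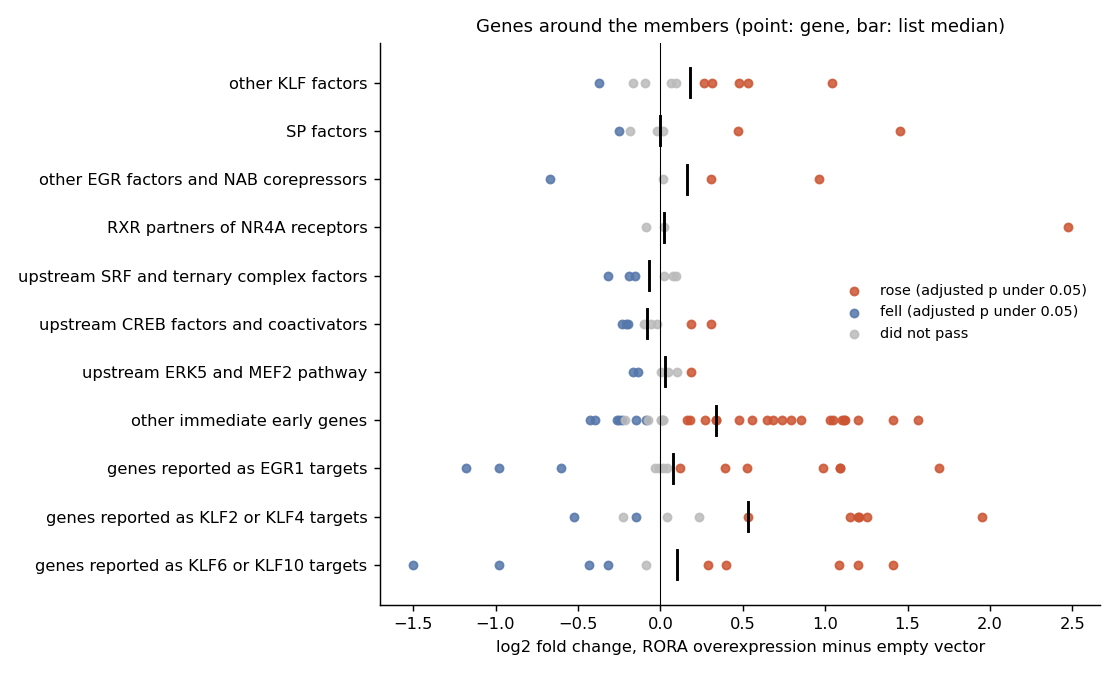
Log2 fold change, RORα overexpression minus empty vector, of each gene (point) in lists of relatives, partners, upstream factors, other immediate early genes and reported targets, with the list median as a bar. Upstream factors cluster near 0, other immediate early genes have a median of 0.34, and the target lists reach from -1.50 to 1.95.

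The genes whose profile over the 10 libraries was most like each member's were found by the root mean square difference of log2 CPM, each gene centred on its own mean, among 12127 genes. The libraries fall into 2 groups, so likeness rests mostly on a similar difference between them. The nearest pairs were RELN and BHLHE41 for NR4A3 (0.147 and 0.15 log2 units), OSCAR and SMCO2 for NR4A2 (0.279 and 0.297), and SSTR2 and JAG2 for NR4A1 (0.158 and 0.16). For KLF4 they were ZHX2 and VEGFA (0.0948 and 0.104), for KLF6 MTHFD2 and IRS2 (0.0335 and 0.0373), for KLF10 BHLHE40 and TLE1 (0.0526 and 0.0548), and for KLF2 CPNE7 and RTN4R (0.0642 and 0.0649). EGR1 was nearest to C19orf53 and OSTC (0.0226 and 0.0315), whose log2 fold changes were -0.34 and -0.31.

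Cell type markers were read beside these results. Of 24 lens markers, 7 were measured, of which 1 rose, 2 fell and 4 did not pass. The other 17, FOXE3 and CRYAA included, were not among the genes of the table. That table had been reduced in a way that is not stated, so their levels are not known. VIM, which lens epithelium shares with mesenchymal cells, rose from 1530 to 2060 CPM, BFSP1, a lens fibre filament protein, fell from 7.51 to 4.80 CPM, and CRYAB, a crystallin, fell from 1.43 to 0.370 CPM. PAX6 at 19.6 and 20.9 CPM and SIX3 at 7.99 and 8.05 CPM, the lens field factors measured, did not pass, nor did CRYGS and GJA1. Of 10 fibroblast markers 8 were measured and all 8 fell, their summed level going from 3090 to 3330 CPM in the empty vector libraries to 1030 to 1160 CPM with RORα overexpression. COL1A1 alone had group means of 2350 and 829 CPM, so the sum mostly follows that gene. The largest falls were those of COL3A1, from 116 to 8.91 CPM, and COL1A2, from 304 to 74.2 CPM. Of 10 endothelial markers 4 were measured at a summed 28.8 to 41.7 CPM and 3 fell. PECAM1 fell by 0.89 and TIE1 by 0.57 on the log2 scale. Of 12 immune markers only CD14 was measured and fell, from 2.98 to 1.49 CPM. In bulk RNA, fewer cells of a type and less RNA per cell cannot be told apart, and the part of these markers in the members' differences was not tested.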

How the data were processed

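The libraries were made from total RNA extracted with TRIzol, with poly-A selection on beads and priming by random hexamers, per the labels' protocols. The submitters' processing notes name HISAT2 2.2.1, HTSeq and GRCh38, with no annotation release. The authors deposited raw read counts and FPKM per gene and library, per the file headers. The FPKM values were proportional to the counts of their library, to within a relative 4.57e-05 for each gene. The lowest gene total was 88 counts, so the table had been reduced in a way that is not stated.

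Counts of genes passing filterByExpr (count of 10, total of 15; 12520 of 12540 genes) were scaled by TMM and tested by the edgeR 4.0.16 quasi-likelihood test (R 4.3.3, two-sided), with Benjamini-Hochberg adjustment over all genes tested and a threshold of 0.05. CPM used TMM-scaled totals, and 3 counts, the limit that a count of 0 allows, equal 0.137 to 0.172 CPM (counting error only). Standard errors of single genes came from the F statistic, and those of pair ratios from the variances of the 2 groups. Intervals are 1.96 standard errors at 95%. For pair ratios this normal approximation is too narrow with 5 libraries a side. Pair ratios used a prior of 0.5 counts and scipy 1.17.1. Positions and exon unions came from GENCODE 29, promoters from RefSeq (GRCh38.p14). Every motif for which a share of windows is given was searched on both strands, the CArG box by its consensus. CACCC was in 58.5% of windows and in 4 of the 7 member windows.

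Members, lists, tests and alternatives were chosen with earlier results of these data known. Genes were named by a rule. It took the members, RORA, up to 2 rises and 2 falls past the threshold per list, and defining markers. It also took the 2 nearest genes of each member with a mean of at least 1 CPM. FOS, NAB2, RXRA, RXRB and SRF, which did not pass the threshold, were named outside this rule. Alternatives were DESeq2 1.42.0, its size factors, upper quartile factors, library totals alone, no filter on counts, a block for the replicate number, limma 3.58.1 on FPKM with a pseudocount of 1 or 0.1, and leaving out each library. The edgeR script was tested on simulated data. No library was a copy of another: in 20 pairs from the same group, chi-square divided by its degrees of freedom was 2.28 to 5.74.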

Additional observations from a re-analysis of the deposited data

How the results depend on the processing

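Every member kept its direction and its call in each alternative that could be fitted, 141 of 141 values, and the count of genes called lay between 5073 and 7043 against 7026. Limma on log2(FPKM + 1) called 5 members, since its filter at a mean FPKM of 1 left out the NR4A genes. The replicate number is not stated to pair libraries, and residuals of same-numbered libraries correlated at -0.07 to 0.07. With it as a replicate block all 8 members were called and 6949 genes. Leaving out 1 library at a time, the change of the NR4A1 to NR4A3 ratio lay between -0.66 and -0.46, losing its call in 8 of 10 fits, and 4 against 5 libraries cannot go below an exact p of 0.016. That of NR4A1 to NR4A2 lay between -0.77 and -0.46, that of KLF2 to KLF6 between -0.24 and -0.15 and that of KLF2 to KLF10 between -0.14 and -0.042, each passing only without OE3. That of NR4A2 to NR4A3 lay between -0.045 and 0.28, turning negative without EV2 or EV4 (-0.045 and -0.032). The causes were not tested. The 3 pairs with KLF4 kept their calls throughout. Depth limits the NR4A genes most, with as few as 16 counts of NR4A2 in a library.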
